A study of Mus musculus with 12 samples.

Results

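The 53 genes described here encode the machinery that licenses origins and copies DNA, from the origin recognition complex to the enzymes that supply deoxynucleotides. They were selected by gene symbol from 55487 genes in the deposited table, each was found on a single row, and all 53 were among the 15968 genes with at least 1 TPM in at least 2 libraries, which were tested. They were grouped by known function, and the set was proposed with earlier results of these data in view. The cells were 3T3-L1, a mouse fibroblast line that can be induced to form adipocytes, and every line had been infected with a lentiviral hairpin vector and selected with puromycin. Control cells carried a hairpin named shScram, and knockdown cells carried a hairpin against Fto, an RNA demethylase that removes N6-methyladenosine (shFTO). Cells were taken as preadipocytes (Pre), at mitotic clonal expansion (MCE) after hormonal induction of confluent cells, or as differentiated cells (Diff). The 6 groups of line and stage held 2 libraries each, and nothing in the labels states that replicates came from separate cultures, so the p-values measure only the spread between these libraries. Which of the hairpins against Fto was used for sequencing is not named in the sources used here. The number of knockdown lines is therefore unknown, and the comparison may rest on 1 knockdown line against 1 control line.

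Chromosomes are copied once per cell cycle because origins are licensed in G1 and fired in S phase. The origin recognition complex (ORC) sits on origins and, with Cdc6 and Cdt1, loads the ring-shaped MCM helicase, while geminin (Gmnn) blocks Cdt1 from loading it again. The kinase Cdc7 with its activator Dbf4, together with Ticrr, Topbp1, Mcm10, Cdc45 and the GINS complex, turns the loaded ring into a moving helicase. DNA polymerases then work with the sliding clamp Pcna, its loader RFC, the single-strand binding protein RPA, and Fen1 and Lig1, which process and seal Okazaki fragments. Confluent 3T3-L1 preadipocytes are growth arrested and re-enter the cell cycle after induction, which is the mitotic clonal expansion from which the stage takes its name. Many of these genes are known targets of E2F transcription factors.

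The promoters are shown first, because they hold a feature that the selection did not use, an E2F-type string that was more frequent in them than in promoters in general. In RefSeq promoters of GRCm38.p6, which run from 250 bases before the gene start to 50 bases after it, 45 of the 53 genes had an entry, with 54 promoters in all. Gins1, Gins2, Gins4, Gmnn, Mcm4, Pole, Prim2 and Rfc2 had none. The strings TTTCCCGC, TTTCGCGC, TTTGCCGC and TTTGGCGC were searched on both strands. One or more of them stood in 17 of the 54 promoters, or 31.5%, against 744 of 32851 promoters of the same length in the whole table, or 2.26%. The whole table was not limited to genes expressed in these cells, as the members are, and promoters of the tested genes alone were not compared. The 6 sequences below show the strings in capitals on the strand of the gene, with 11 bases on each side. They come from MCM genes, a loading factor and a polymerase gene, and these complexes held the string in most of their promoters.
Mcm5, chr8:75109345-75109374 (+), string 153 bases before the RefSeq start: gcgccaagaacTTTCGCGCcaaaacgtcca
Mcm6, chr1:128359734-128359763 (-), string 47 bases before the start: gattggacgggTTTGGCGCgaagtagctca
Mcm6, chr1:128359793-128359822 (-), string 106 bases before the start: gtatgcttttgGCGCGAAAagtgcgtgcgg
Mcm7, chr5:138172030-138172059 (-), string 165 bases before the start: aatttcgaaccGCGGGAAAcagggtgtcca
Cdc6, chr11:98908002-98908031 (+), string 138 bases before the start: gccggtggagaGCGGGAAAtcgcctggggt
Pola1, chrX:93632275-93632304 (-), string 138 bases before the start: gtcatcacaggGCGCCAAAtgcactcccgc
By the GENCODE M21 annotation, the sequences of Mcm5, Mcm6 and Pola1 lay outside the gene, that of Mcm7 lay in an exon and that of Cdc6 lay in an intron. In Mcm5 a string on the other strand, 149 bases before the start, overlapped the string shown. In Mcm6 a further string, 110 bases before the start, overlapped the one at 106.

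The string was unevenly spread over the complexes. It stood in promoters of 4 of 5 MCM genes with an entry (Mcm3, Mcm5, Mcm6 and Mcm7), in both Cdc6 and Cdt1, in 4 of 7 polymerase genes (Pola1, Pold1, Pold3 and Pole2) and in the 1 GINS gene with an entry, Gins3. It stood in 2 of 6 ORC genes, Orc1 and Orc3. None of the 5 nucleotide-supply genes and none of the 3 RPA genes held it in these windows. The CCAAT string, which was also searched on both strands, was found in 50% of the members' promoters and in 37.4% of all promoters, and TTTGAA, the string of the cell cycle homology region, in 14.8% and 17.9%. A match to letters is a description of the window and does not show that a factor binds there.

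TPM is a share of all transcripts corrected for transcript length, so levels can be compared between genes, but sequencing depth is unknown. Fto itself was at 52.7 to 73.5 TPM in the 6 shScram libraries and at 5.51 to 7.47 TPM in the 6 shFTO libraries, with no overlap (exact permutation test, two-sided, labels exchanged within a stage, p = 0.00926, which is the lowest value 216 arrangements can give). The treatment entry of replicate 1 of shScram at Diff names the knockdown, but its title names shScram and its Fto level of 73.5 TPM was that of the control line. Fibroblast genes were high in every library (Col1a1 at 294 TPM or more), whereas summed TPM of 9 adipocyte genes at Diff was 1516 to 1524 in shScram and 412 to 451 in shFTO, with Lep at or near 0 throughout. At MCE the same sum was 370.5 to 370.6 in shScram and 263 to 272 in shFTO, and in preadipocytes it was 130 to 192 and 266 to 298. Lpl made up most of the sums in shFTO. At MCE it was higher there, at 196 and 199 TPM against 92.4 and 77.1 TPM in shScram. Fabp4 at MCE was lower in shFTO, at 44.1 and 52.7 TPM against 211 and 231 TPM. Of 5 macrophage genes, Adgre1 was at 0 in all libraries and Ptprc at or near 0. Their summed level was 5.27 to 15.6 TPM in shScram and 22.3 to 49.6 TPM in shFTO, and Cd14 made up most of it, at 3.37 to 11.6 TPM and 18.6 to 48.4 TPM. The 4 endothelial and 4 epithelial genes summed to at most 1.15 TPM in any library, and Kdr was at 0. The part of these other cell markers in the results below was not tested, and in bulk RNA fewer cells of a type cannot be told apart from less RNA per cell.

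Replicates correlated at 0.990 to 0.993 across tested genes (Pearson, log2(TPM + 1)), except for the shScram preadipocyte pair, at 0.939. For the 53 genes this pair correlated at 0.837, and replicate 2 minus replicate 1 ran from -1.02 to 2.05 on the log2(TPM + 1) scale. Gene by gene, this difference followed the GC content of the longest transcript, with a Spearman rho of 0.729 over the 53 genes and 0.688 over 15928 tested genes. In the other 5 groups the rho over the 53 genes lay between -0.499 and 0.486, over differences with medians of 0.072 to 0.142 in absolute size against 0.448 in the shScram preadipocyte pair. Pold1, the most GC-rich member at 61.0%, read 3.94 and 19.4 TPM in that pair, and Orc4 read 93.9 and 45.8 TPM. Results that rest on replicate 1 of shScram preadipocytes are therefore given with and without it.

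**Figure D1:**
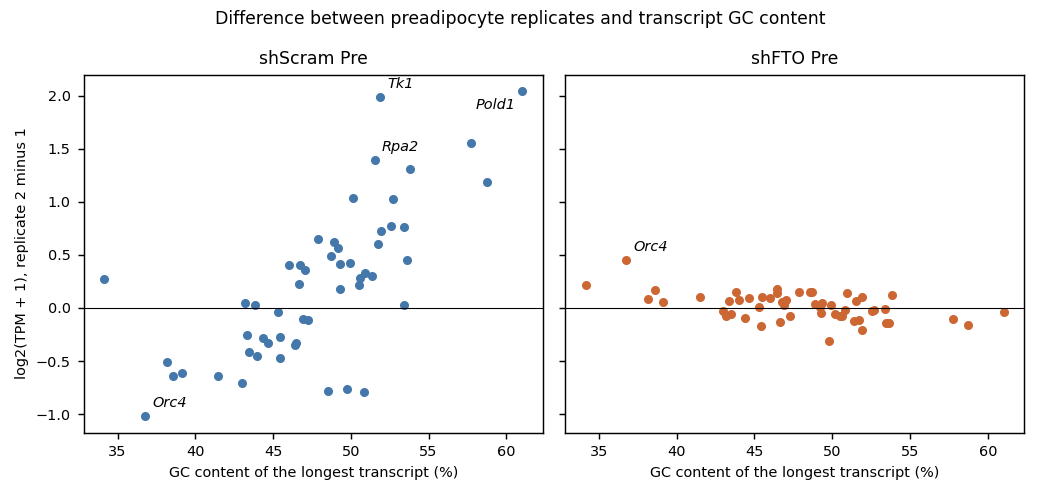
Difference between the 2 replicates, replicate 2 minus replicate 1 in log2(TPM + 1), against the GC content of the longest transcript in percent, with 1 point per gene for the 53 replication genes in preadipocytes of shScram (left) and shFTO (right). In shScram the differences run from -1.02 (Orc4) to 2.05 (Pold1) and climb with GC content (rho 0.729), whereas in shFTO they lie between -0.307 and 0.448.

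The highest levels of the replication genes were found in shFTO cells at MCE. Of the 53 genes, 41 had their highest group mean there, 10 in shScram preadipocytes, and 1 each in shScram at MCE (Rfc4) and in shFTO at Diff (Cdc7). When replicate 1 of shScram preadipocytes was left out, 43 were highest in shFTO at MCE and 5 in shScram preadipocytes (Orc2, Orc6, Dbf4, Pole and Rfc1). The lowest group mean was in shScram at Diff for 34 genes, and for 37 without that library. Summed over all 53 genes, the level was 1822 and 1904 TPM in shScram preadipocytes, 2131 and 2132 TPM in shScram at MCE, and 1238 and 1223 TPM in shScram at Diff. The sums in shFTO cells began at 1809 and 1822 TPM (preadipocytes), reached 3288 and 3248 TPM (MCE) and ended at 1465 and 1505 TPM (Diff). The sums of the lines thus lay close together in preadipocytes, and shFTO cells lay above shScram cells 1.53-fold at MCE and 1.21-fold at Diff. Pcna was the most abundant member in every group, at group means of 89.7 to 321 TPM, while Orc1 and Ticrr were among the 3 least abundant in every group.

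**Figure D2:**
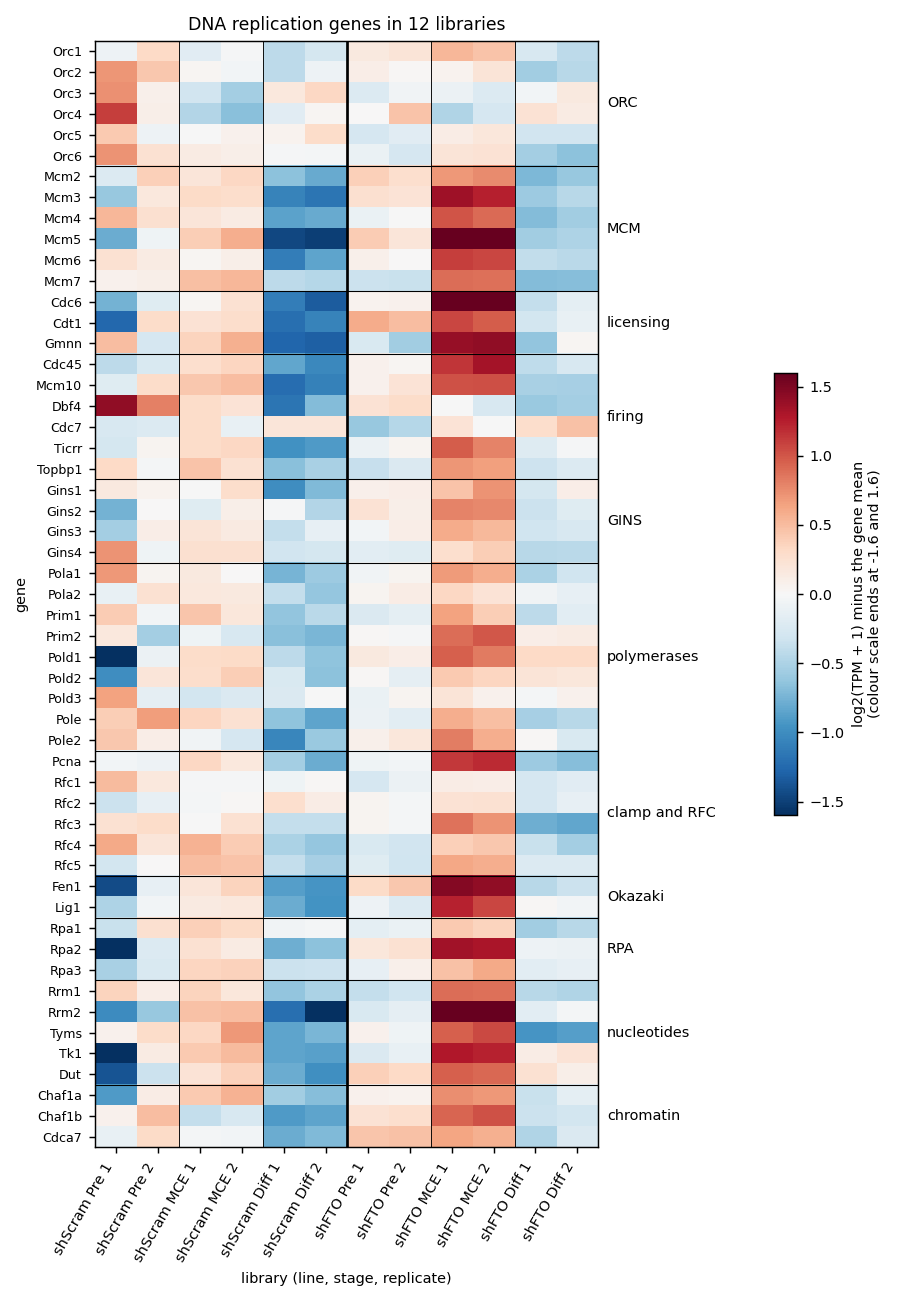
Level of each of the 53 replication genes (rows, grouped by complex) in each of the 12 libraries (columns, line, stage and replicate), as log2(TPM + 1) minus the mean of the gene over the libraries. Red fills the 2 shFTO columns at MCE, where 41 genes have their highest group mean, and blue fills the shScram columns at Diff, where 34 have their lowest.

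The first question was how the lines differed at each stage. At MCE, 20 of the 53 genes were higher in shFTO cells by limma at an adjusted p under 0.05 and none was lower, against 10.5% of all tested genes called higher and 7.26% called lower. At an unadjusted p under 0.05, 28 of the genes differed, against 30.3% of all tested genes. The median log2 fold change was 0.55 for the 53 genes and 0.05 for all tested genes. Both shFTO libraries lay above both shScram libraries for 46 of the 53 genes, against 41.1% of all tested genes, and below for 1, Dbf4, against 30.3%. The estimate of the spread is shared by all groups and includes the uneven shScram preadipocyte pair. Without replicate 1 of that pair, the MCE fold changes stayed as they were and 33 genes were higher, the earlier 20 among them, with 25.5% of all tested genes then called higher. Without any 1 of the 4 MCE libraries, fewer members and a smaller share of all tested genes were called. The median of the members was then 0.51 to 0.58, against 0.03 to 0.08 over all tested genes.

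**Figure D3:**
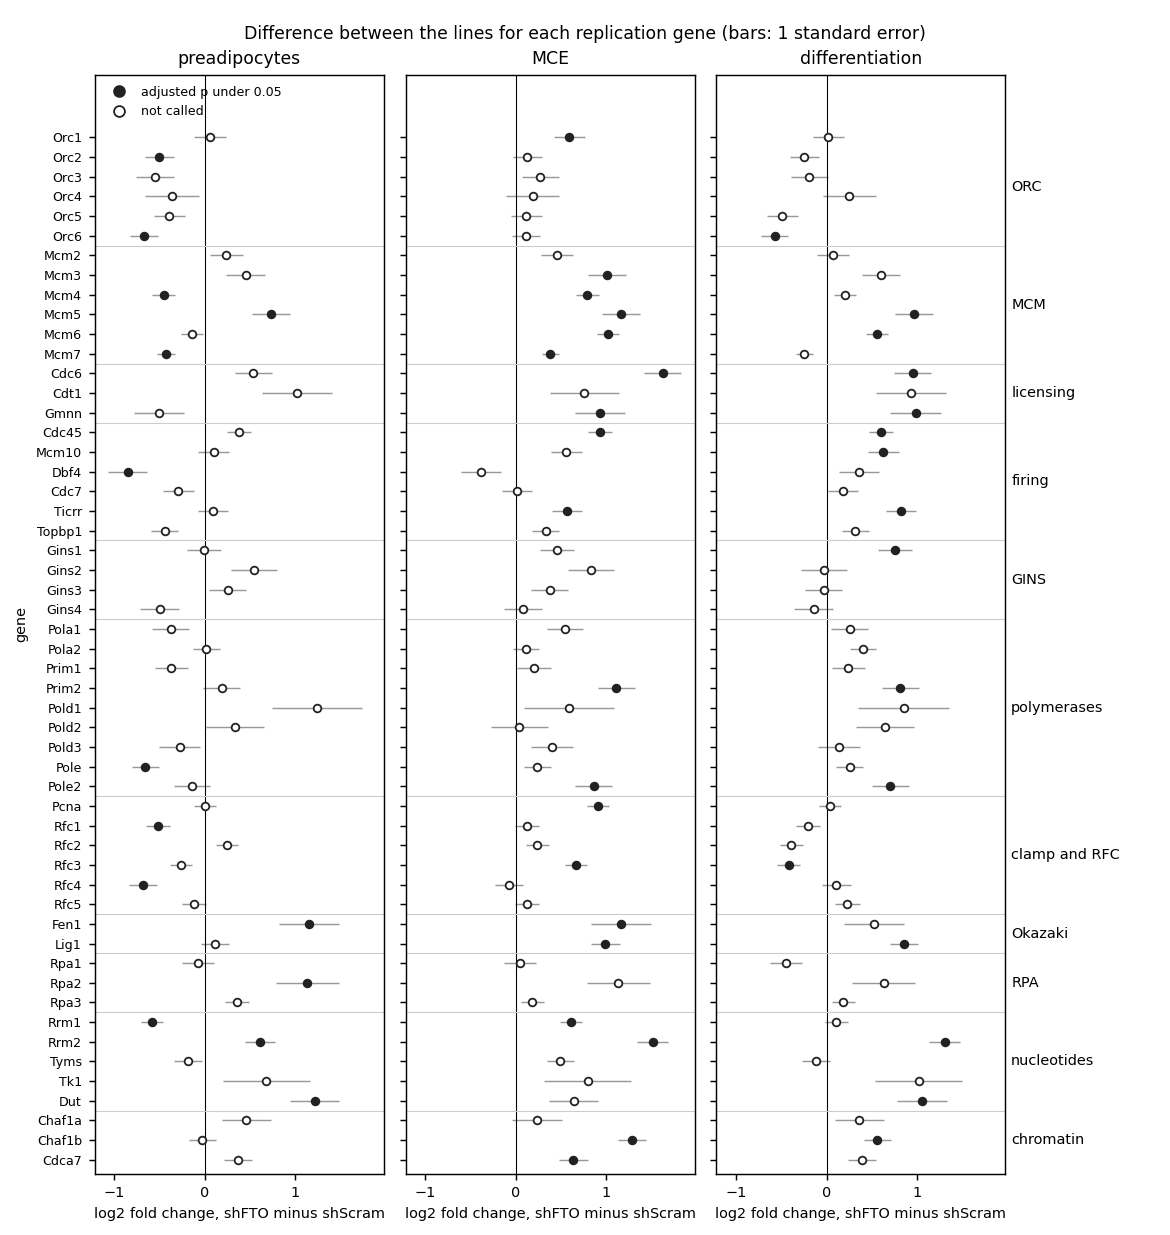
Log2 fold change of shFTO over shScram (TPM + 1) for each of the 53 genes in preadipocytes, at MCE and after differentiation, with bars of 1 standard error and filled points for an adjusted p under 0.05 by limma. At MCE 20 points are filled, all right of 0, with Cdc6 farthest at 1.63, while in preadipocytes 5 filled points lie right of 0 and 9 left.

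In the MCM helicase 5 of 6 subunits were higher at MCE. Its 6 subunits summed to 402 and 418 TPM in shScram and to 724 and 707 TPM in shFTO, a 1.75-fold ratio of means. Mcm3, Mcm4, Mcm5, Mcm6 and Mcm7 were higher in shFTO cells, and Mcm2, at 70.9 and 78.5 TPM in shScram against 100.5 and 105 TPM in shFTO, did not pass the test (log2 fold change 0.46). Mcm5, a subunit of the ring whose gene lies on chromosome 8 of GRCm38 from 75109569 to 75128439, was at 55.7 and 63.6 TPM in shScram and at 134 and 135 TPM in shFTO. Its log2 fold change was 1.16 (± 0.21, where ± gives the standard error of the fit here and below, adjusted p = 0.00547). The subunits are used in equal numbers in the ring, and at MCE in shFTO their group means spanned 103 to 135 TPM, a ratio of 1.31 between the highest and the lowest. In shFTO this ratio was 1.614 in preadipocytes and 1.425 at Diff. In shScram it was 2.339 in preadipocytes, where the replicates were uneven, 1.52 at MCE and 3.15 at Diff. Mcm7 is less certain than the others, since its exons overlap Cops6 and Ap4m1 on the opposite strand and hold the microRNAs Mir25 and Mir93, and whether strand was used in the quantification is not stated.

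The ORC subunits showed little of this. They summed to 176 and 165 TPM in shScram at MCE and to 190.3 and 196 TPM in shFTO, a ratio of 1.13. Only Orc1, the subunit whose level is known to be regulated through the cell cycle, passed the test, at 3.84 and 4.41 TPM in shScram against 6.91 and 6.52 TPM in shFTO (log2 fold change 0.59 ± 0.17, adjusted p = 0.0453). This call was lost under 14 of 19 alternatives, a pseudocount of 0.1 and quantile normalization among them. The other 5 subunits had log2 fold changes between 0.11 and 0.27. Orc6 was the most abundant subunit in 5 of the 6 groups, and Orc1 the least abundant in all. Orc1, Orc2, Orc4 and Orc6 overlap exons of other genes on the opposite strand, and Orc5 overlaps a pseudogene on its own strand.

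The factors that load the helicase carried the largest fold change of all members. Cdc6, on chromosome 11 from 98907801 to 98923940, was at 4.52 and 5.41 TPM in shScram at MCE and at 17.8 and 16.9 TPM in shFTO. The libraries did not overlap, and the log2 fold change was 1.63 (± 0.21, adjusted p = 0.000957). Geminin, the inhibitor of loading, was higher as well, going from 21.9 and 25.6 TPM in shScram to 45.9 and 46.7 TPM in shFTO (log2 fold change 0.94). Cdt1 read 35.5 and 36.9 TPM in shScram against 64.6 and 59.8 TPM in shFTO, but its log2 fold change of 0.76 did not pass with all 12 libraries (adjusted p = 0.231) and did without replicate 1 of shScram preadipocytes. In that replicate Cdt1 stood at 12.1 TPM against 37.4 TPM in its pair. The ratio of Cdt1 to Gmnn was 1.62 and 1.44 in shScram at MCE and 1.41 and 1.28 in shFTO, and it was 3.28 and 3.82 in shFTO preadipocytes.

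Of the 6 genes that fire origins, Cdc45 and Ticrr were higher at MCE. Cdc45, a part of the moving helicase, was at 28.5 and 30.0 TPM in shScram at MCE and at 52.9 and 60.7 TPM in shFTO (log2 fold change 0.93 ± 0.13, adjusted p = 0.00183). Ticrr, which brings Topbp1 and Cdc45 to origins, had a log2 fold change of 0.57. Dbf4, the activator of the kinase Cdc7, read 28.9 and 27.4 TPM in shScram against 23.2 and 19.5 TPM in shFTO and was the one member whose shFTO libraries both lay below those of shScram (log2 fold change -0.39, not called). Cdc7 read 12.8 and 9.35 TPM against 12.03 and 10.2 TPM, and its groups overlapped. The 4 GINS genes had log2 fold changes of 0.08 to 0.83, none of them called with all libraries, with Gins2 going from 9.77 and 12.1 TPM to 20.3 and 20.1 TPM.

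Of the 9 polymerase and primase subunits 2 were called at MCE. Prim2, the large subunit of primase, was at 22.6 and 19.7 TPM in shScram at MCE and at 45.0 and 48.6 TPM in shFTO (log2 fold change 1.11 ± 0.20, adjusted p = 0.00592). Prim1, the catalytic subunit of the same enzyme, read 31.2 and 26.0 TPM in shScram against 36.0 and 30.2 TPM in shFTO, and these groups overlapped. Pole2, the second subunit of polymerase epsilon, was higher (log2 fold change 0.86), and Pole, its catalytic subunit, had a log2 fold change of 0.24 that did not pass. The 3 subunits of polymerase delta measured, Pold1, Pold2 and Pold3, had log2 fold changes of 0.59, 0.04 and 0.40, none of them called with all libraries.

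The sliding clamp was called and most of its loader was not. Pcna was at 180.4 and 160.0 TPM in shScram at MCE and at 313.5 and 329 TPM in shFTO (log2 fold change 0.91 ± 0.12, adjusted p = 0.00119). Of the 5 subunits of RFC, Rfc3 was higher at 52.5 and 47.0 TPM against 28.2 and 33.7 TPM (log2 fold change 0.67). The other 4 had log2 fold changes from -0.07 (Rfc4) to 0.24 (Rfc2). Rfc2, Rfc4 and Rfc5 overlap exons on the opposite strand.

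Both enzymes of Okazaki fragment maturation were higher. Fen1, the flap endonuclease, was at 30.3 and 34.2 TPM in shScram at MCE and at 75.0 and 72.4 TPM in shFTO (log2 fold change 1.17 ± 0.33, adjusted p = 0.0404). Lig1, the ligase that seals the nick, had a log2 fold change of 0.99. Both overlap exons on the opposite strand. For RPA the subunits differed in size. Rpa2 read 27.5 and 25.4 TPM in shScram against 60.1 and 58.5 TPM in shFTO, with a log2 fold change of 1.14 that missed the threshold with all libraries (adjusted p = 0.0544) and passed it without replicate 1 of shScram preadipocytes. Rpa1 and Rpa3 had log2 fold changes of 0.05 and 0.18, so the 3 subunits of the trimer, which were at 72.7, 26.5 and 93.0 TPM in shScram at MCE, stood at 75.2, 59.3 and 106 TPM in shFTO.

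Among the genes that supply nucleotides, Rrm2 stood out. Rrm2, the small subunit of ribonucleotide reductase, on chromosome 12 from 24708241 to 24714146, was at 56.4 and 57.4 TPM in shScram at MCE and at 169 and 161 TPM in shFTO. The log2 fold change was 1.52 (± 0.17, adjusted p = 0.000454). Rrm1, the large subunit, was higher with a log2 fold change of 0.61, so Rrm1 exceeded Rrm2 in shScram (82.9 and 73.4 TPM) and lay below it in shFTO (120.4 and 119 TPM). Thymidine kinase (Tk1), dUTPase (Dut) and thymidylate synthase (Tyms) had log2 fold changes of 0.80, 0.64 and 0.50, which did not pass with all libraries and did without replicate 1 of shScram preadipocytes. Of the chromatin genes, Chaf1b, a subunit of the chromatin assembly factor CAF-1, was at 15.1 and 16.6 TPM in shScram against 38.8 and 41.5 TPM in shFTO (log2 fold change 1.29 ± 0.15, adjusted p = 0.0006). Its partner Chaf1a read 34.2 and 37.8 TPM against 43.2 and 41.7 TPM (log2 fold change 0.23, not called). Cdca7, a cell cycle-regulated gene of DNA methylation upkeep, was higher (log2 fold change 0.64).

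**Figure D4:**
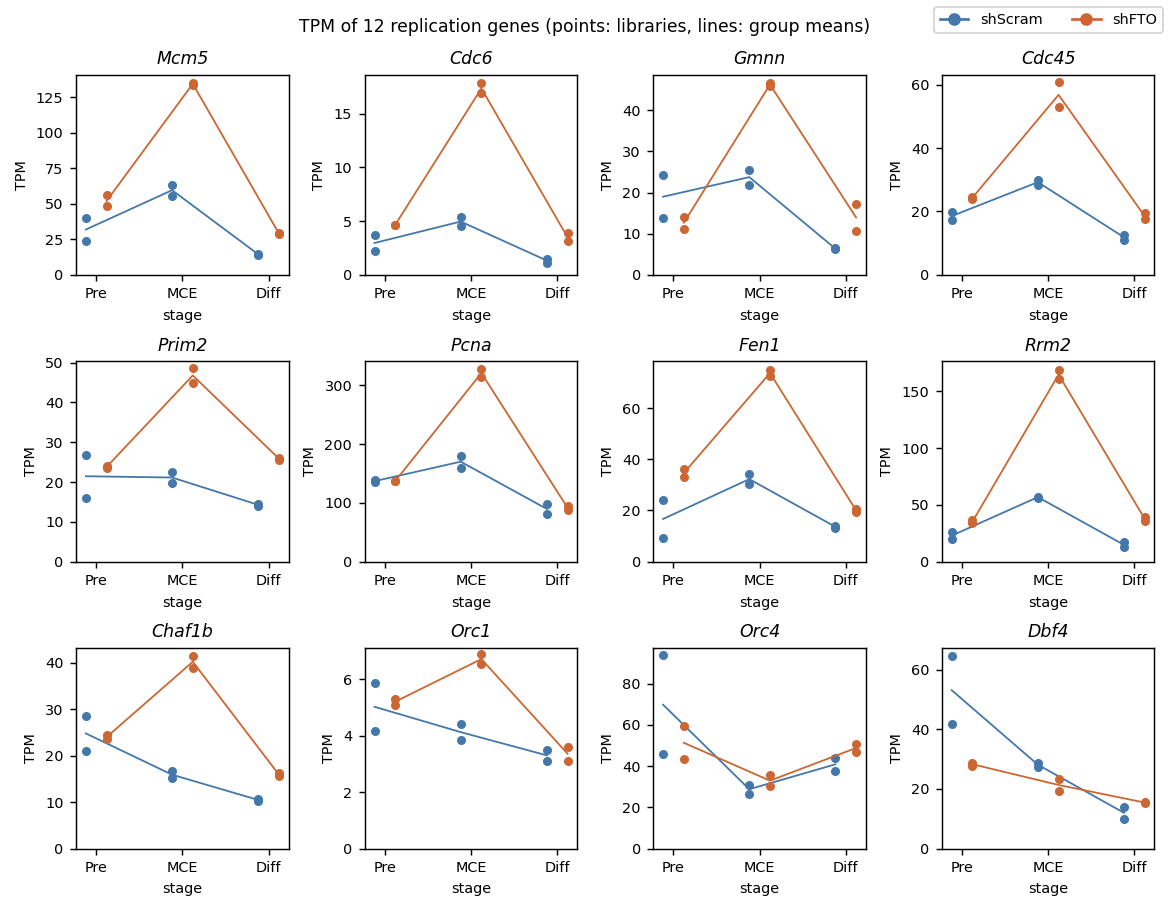
TPM of 12 replication genes by stage, with 1 point per library and lines through the means of shScram (blue) and shFTO (orange). For Mcm5, Cdc6, Gmnn, Cdc45, Prim2, Pcna, Fen1, Rrm2 and Chaf1b the orange points at MCE lie clear of every blue point (Rrm2 at 169 and 161 TPM against 57.4 TPM or less). Orc4 and Dbf4 have their highest group mean in shScram preadipocytes. For Orc4 this rests on replicate 1 at 93.9 TPM, with replicate 2 at 45.8 TPM against 43.3 and 59.4 TPM in shFTO preadipocytes. Without replicate 1, Orc4 is highest in shFTO preadipocytes.

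Set beside the promoters shown above, the genes with an E2F-type string had a median of 0.64 for the log2 fold change at MCE, with 10 of 17 called, and the 28 genes with a promoter entry but no string had a median of 0.22, with 7 called. The split was not clean. Rrm2, Chaf1b, Fen1, Pcna and Cdc45 were called without a string in their windows, and Orc3 (0.27) held one and was not called. Members without a promoter entry are in neither group, and Mcm4, Gmnn and Prim2 among them were called. Genes outside the set whose promoters hold the string were not compared. Whether the string goes with the fold change was therefore not tested.

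After differentiation the difference was smaller and less uniform. At Diff, 14 of the 53 genes were higher in shFTO cells and 2 were lower, against 11.9% and 9.31% of all tested genes, and the median log2 fold change was 0.26 for the members and 0.03 for all tested genes. Both shFTO libraries lay above both shScram libraries for 35 genes, against 39% of all tested genes, and below for 11, against 34%. Without replicate 1 of shScram preadipocytes the Diff fold changes stayed as they were. More members and more of all tested genes were then called in both directions. Without any 1 of the 4 Diff libraries, fewer members were called. As no share of all tested genes is given for those fits, this is no result about the members. Of the 14 higher genes, 11 were also higher at MCE (55% of the 20 and 78.6% of the 14), and these were Mcm5, Mcm6, Cdc6, Gmnn, Cdc45, Ticrr, Prim2, Pole2, Lig1, Rrm2 and Chaf1b.

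Rrm2 had the largest change at Diff, with 16.9 and 12.7 TPM in shScram against 35.9 and 39.5 TPM in shFTO (log2 fold change 1.31 ± 0.17, adjusted p = 0.000856). Mcm5 was at 14.7 and 14.1 TPM in shScram and at 28.4 and 29.7 TPM in shFTO, a log2 fold change of 0.97 (± 0.21, adjusted p = 0.0115). Mcm6 was higher, and the other 4 subunits, from -0.25 (Mcm7) to 0.60 (Mcm3), were not called. Summed MCM transcripts in shFTO cells at Diff stood at 0.309 of their level at MCE.

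Geminin read 6.45 and 6.24 TPM in shScram at Diff and 10.5 and 17.3 TPM in shFTO (log2 fold change 0.98 ± 0.28, adjusted p = 0.035). Its shFTO replicates lay far apart, and the call was lost under 13 of 20 alternatives, both rescalings between libraries among them. Ticrr was at 1.21 and 1.30 TPM against 2.73 and 3.27 TPM (log2 fold change 0.82 ± 0.17, adjusted p = 0.00878), and these are low levels on which the pseudocount of 1 weighs. Prim2 was at 14.6 and 14.0 TPM against 25.7 and 26.1 TPM (log2 fold change 0.82 ± 0.20, adjusted p = 0.0213), Lig1 at 17.5 and 15.6 TPM against 31.5 and 30.0 TPM (0.86 ± 0.16, adjusted p = 0.00548), and Chaf1b at 10.2 and 10.7 TPM against 15.6 and 16.2 TPM (0.56 ± 0.15, adjusted p = 0.0283). Gins1, which was not called at MCE, was at 4.44 and 5.67 TPM against 7.94 and 10.6 TPM (0.76 ± 0.19, adjusted p = 0.0206).

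The 2 lower genes were Orc6 and Rfc3. Orc6 was at 61.9 and 61.4 TPM in shScram at Diff and at 42.7 and 39.5 TPM in shFTO (log2 fold change -0.58 ± 0.15, adjusted p = 0.0278). Rfc3 was at 21.4 and 21.5 TPM against 16.1 and 15.5 TPM (log2 fold change -0.42 ± 0.12, adjusted p = 0.0419), having been higher in shFTO cells at MCE. Pcna, at 97.6 and 81.9 TPM against 95.0 and 88.7 TPM, overlapped between the lines at Diff. Adipocyte genes differed between the lines at the same stage, as given above by their sums, and their part in these differences was not tested.

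In preadipocytes the members did not move in one direction. With all libraries, 5 of the 53 genes were higher in shFTO cells and 9 were lower, against 15.9% and 12.3% of all tested genes, and the median log2 fold change was -0.01, against 0.08 over all tested genes. The higher genes were Mcm5, Fen1, Rpa2, Rrm2 and Dut, and the lower ones Orc2, Orc6, Mcm4, Mcm7, Dbf4, Pole, Rfc1, Rfc4 and Rrm1. These fold changes followed transcript GC content over the 53 genes (Spearman rho 0.597), as the difference within the shScram pair did. Without replicate 1 of shScram preadipocytes, 5 were higher and 10 lower, against 16.3% and 12.9% of all tested genes, but they were not all the same genes, with Rrm2 and Orc2 dropping out and Prim2, Rpa1 and Tk1 coming in. Calls at this stage depended on which library was left out, among the members and among all tested genes. Without replicate 2 in its place the median of the members was 0.04, against 0.16 over all tested genes. Without replicate 1 or 2 of shFTO preadipocytes it was 0.00 or -0.02, against 0.11 or 0.04.

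Fen1 shows how far 1 library reached. It was at 9.19 and 24.2 TPM in shScram preadipocytes and at 33.1 and 36.1 TPM in shFTO, a log2 fold change of 1.15 (± 0.33, adjusted p = 0.0334) that was 0.50 without the first library. Dut went from 1.22 (± 0.27, adjusted p = 0.0143) to 0.70, and Rpa2 from 1.13 (± 0.35, adjusted p = 0.0412) to 0.44. Mcm5, at 23.8 and 40.0 TPM against 55.9 and 48.2 TPM, went from 0.73 (± 0.21, adjusted p = 0.0333) to 0.37. Tk1 turned from 0.68, not called, to -0.31, called lower.

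The lower genes kept their direction without replicate 1 of shScram preadipocytes, as Fen1, Dut, Rpa2 and Mcm5 did among the higher ones. Pole, the catalytic subunit of the leading-strand polymerase, was at 12.8 and 15.7 TPM in shScram and at 8.84 and 8.36 TPM in shFTO (log2 fold change -0.66 ± 0.15, adjusted p = 0.0148), and -0.80 without the first library. Dbf4 was at 64.5 and 41.8 TPM against 27.8 and 28.9 TPM (-0.85 ± 0.22, adjusted p = 0.0233), and -0.55 without it. Orc6 was at 104 and 74.9 TPM against 58.4 and 51.9 TPM (-0.67 ± 0.15, adjusted p = 0.0155), and -0.44 without it. Rfc4 was at 37.1 and 27.5 TPM against 20.0 and 19.2 TPM (-0.68 ± 0.16, adjusted p = 0.0157), and -0.47 without it. In all 4 genes the shScram libraries lay above the shFTO libraries, as they did for 19 of the 53 genes and for 26.9% of all tested genes. Both shFTO libraries lay above for 14 of the 53, against 33.6% of all tested genes.

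The stages were compared next within each line. From preadipocytes to MCE in shFTO cells, 28 of the 53 genes rose and none fell, against 8.8% and 19.9% of all tested genes, with medians of 0.66 for the members and -0.18 for all tested genes. Rrm2 rose from 34.0 and 36.4 TPM to 169 and 161 TPM (log2 fold change 2.19 ± 0.17, adjusted p = 3.06e-05). Gmnn rose from 14.1 and 11.2 TPM to 45.9 and 46.7 TPM (1.80 ± 0.28, adjusted p = 0.00146), and Mcm5 from 55.9 and 48.2 TPM to 134 and 135 TPM (1.36 ± 0.21, adjusted p = 0.00144). Loading factors, firing factors, helicase, clamp and ligase all took part. Cdc45 rose by 1.19 (± 0.13, adjusted p = 0.00026), Pcna by 1.22 (± 0.12, adjusted p = 0.000125), Lig1 by 1.30 (± 0.16, adjusted p = 0.000396), Rpa2 by 1.11 (± 0.35, adjusted p = 0.0414), Prim2 by 0.95 (± 0.20, adjusted p = 0.00806) and Chaf1b by 0.72 (± 0.15, adjusted p = 0.00689) on the log2 scale. No ORC gene and no GINS gene was called in this step with all libraries. With replicate 1 of shScram preadipocytes left out, 44 genes rose and 2 fell, against 16% and 35.5% of all tested genes, with all 4 GINS genes and 2 ORC genes among those that rose and 1 ORC gene among those that fell.

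In shScram cells the same step was smaller and mixed. Here 11 genes rose and 5 fell, against 12.2% and 26.9% of all tested genes, and the medians were 0.24 for the members and -0.17 for all tested genes. Without replicate 1 of shScram preadipocytes the median of the members was 0.14. Calls in this step depended on which library was left out. No share of all tested genes is given for those fits, so this is no result about the members. With TPM rescaled between libraries by median ratios, which moved the median of all tested genes in this step from -0.17 to 0.00, 24 rose and 2 fell, against 19.6% and 18% of all tested genes. The fold changes of this step followed transcript GC content over the 53 genes with a Spearman rho of 0.620. Rrm2 rose from 19.6 and 26.2 TPM to 56.4 and 57.4 TPM (log2 fold change 1.29 ± 0.17, adjusted p = 0.00057), and by 1.09 without that library. Mcm5 rose by 0.92 (± 0.21, adjusted p = 0.00869), Rfc5 by 0.62 (± 0.14, adjusted p = 0.00774) and Cdc6 by 0.61 (± 0.21, adjusted p = 0.0437). Without the library Mcm5 rose by 0.56 and Rfc5 by 0.46, and Cdc6 was no longer called. Fen1 rose by 1.05 (± 0.33, adjusted p = 0.0332), Rpa2 by 1.11 (± 0.35, adjusted p = 0.0332) and Chaf1a by 0.88 (± 0.27, adjusted p = 0.0315), which became 0.40, 0.41 and 0.37 without it.

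The 5 genes that fell in this step were Orc2, Orc3, Orc4, Dbf4 and Chaf1b. Orc4 fell from 93.9 and 45.8 TPM to 30.9 and 26.7 TPM (log2 fold change -1.16 ± 0.30, adjusted p = 0.0142), and by 0.65 without replicate 1. Dbf4 fell by 0.86 (± 0.22, adjusted p = 0.0144), and by 0.56 without it. Chaf1b is the one of these that rose in shFTO cells over the same step.

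From MCE to differentiation most of the 53 genes fell in both lines. In shScram 34 of the 53 genes fell and 1 rose, against 5.22% and 20% of all tested genes, with medians of -0.91 and 0.23. In shFTO 41 fell and none rose, against 6.48% and 20.2%, with medians of -0.95 and 0.17. The MCM genes, the loading factors, the Okazaki enzymes and the chromatin genes were called lower without exception in both lines. The gene that rose in shScram, though not under either rescaling between libraries, was Orc3, from 34.0 and 28.6 TPM to 47.4 and 53.2 TPM (log2 fold change 0.67 ± 0.21, adjusted p = 0.0426). Orc4 and Cdc7 did not fall in either line, with log2 values of 0.49 and 0.56 for Orc4 and 0.11 and 0.27 for Cdc7, none of them called.

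In shScram the steepest were Mcm5, which fell by 1.98 (± 0.21, adjusted p = 0.0004), Rrm2, which fell by 1.89 (± 0.17, adjusted p = 0.000189), Gmnn, which fell by 1.75 (± 0.28, adjusted p = 0.00266), and Mcm10, which fell by 1.61 (± 0.17, adjusted p = 0.000417). In shFTO Mcm5 fell by 2.17 (± 0.21, adjusted p = 0.000213), Rrm2 fell by 2.1 (± 0.17, adjusted p = 9.27e-05), Cdc6 fell by 2.03 (± 0.21, adjusted p = 0.000278), Fen1 fell by 1.83 (± 0.33, adjusted p = 0.00419), and Pcna fell by 1.79 (± 0.12, adjusted p = 4.76e-05). These are log2 values. In shFTO all 4 GINS genes fell, led by Gins2, which fell by 1.05 (± 0.25, adjusted p = 0.0152), and 3 ORC genes fell, led by Orc1, which fell by 0.83 (± 0.17, adjusted p = 0.00821). In shScram 1 GINS gene fell, Gins1, which fell by 0.98 (± 0.19, adjusted p = 0.0062), and no ORC gene did. In the fit that left out replicate 1 of shScram preadipocytes, 3 GINS genes fell in shScram, and with all libraries the test of the difference between the lines called no GINS or ORC gene.

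Whether the lines differed in these steps was tested as the difference of the steps. From preadipocytes to MCE the step was larger in shFTO for 8 of the 53 genes, and smaller for none, against 2.52% and 2.59% of all tested genes. These were Mcm4, Mcm6, Mcm7, Pole, Pcna, Rfc3, Rrm1 and Chaf1b. Mcm4 went from 52.0 and 55.8 TPM to 114 and 106 TPM in shFTO and from 81.9 and 67.4 TPM to 64.7 and 61.5 TPM in shScram, a difference of 1.25 (± 0.18, adjusted p = 0.00595). Over the 53 genes the difference of the steps ran against transcript GC content, with a Spearman rho of -0.440. Chaf1b had the largest difference, at 1.32 (± 0.21, adjusted p = 0.011). Without replicate 1 of shScram preadipocytes, 27 genes had a larger step in shFTO, the 8 among them, and none a smaller one, with 8.25% and 6.04% of all tested genes called. The number called also depended on which other library at these stages was left out. The share of all tested genes is not given for those fits, so this is no result about the members.

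From MCE to differentiation the step differed for 3 genes, which fell further in shFTO, and no gene fell further in shScram, against 1.01% and 1.47% of all tested genes. Rfc3 fell by 1.596 in shFTO and by 0.51 in shScram, a difference of -1.09 (± 0.18, adjusted p = 0.0164). Mcm7 (-0.63 ± 0.13, adjusted p = 0.0486) and Pcna (-0.88 ± 0.17, adjusted p = 0.0343) were the others. All 3 are also among the genes with the larger step to MCE, a comparison that uses the same MCE libraries. Leaving out replicate 1 of shScram preadipocytes, 16 fell further in shFTO and 3 in shScram, against 9.07% and 8.25% of all tested genes. Fewer were called without any 1 of the MCE or Diff libraries, and the share of all tested genes is not given for those fits.

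A further 48 genes of the pathway, which are not among the 53, were counted in the same fits. They include the fork protection complex, nucleotide metabolism, histone chaperones and polymerase accessory subunits. At MCE 13 were higher in shFTO cells and 1 was lower, with a median log2 fold change of 0.33, against 10.5% and 7.26% of all tested genes. Dck, the deoxycytidine kinase of the salvage pathway, was highest, with 13.2 and 15.3 TPM in shScram against 32.6 and 31.1 TPM in shFTO (1.11 ± 0.16, adjusted p = 0.00197). The lower gene was Samhd1, which breaks down deoxynucleotides, at 114 and 108 TPM in shScram against 55.3 and 50.1 TPM in shFTO (-1.06 ± 0.12, adjusted p = 0.00061). Rrm1 and Rrm2 of ribonucleotide reductase, which makes deoxynucleotides, and Samhd1 thus differed in opposite directions at MCE. Rrm2b, an alternative small subunit, read 9.03 and 8.89 TPM in shScram against 6.51 and 7.51 TPM in shFTO and was not called. At Diff 9 were higher and 1 lower, against 11.9% and 9.31%, led by Timeless, a fork protection gene, at 6.59 and 6.19 TPM against 20.9 and 19.5 TPM (1.52 ± 0.17, adjusted p = 0.000376). In preadipocytes 3 were higher and 7 lower, against 15.9% and 12.3% of all tested genes, shares that these counts did not stand clear of.

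Genes of mitosis were also counted. In a list of 15 mitotic genes, 1 was higher and 2 were lower in shFTO cells at MCE, near the 10.5% and 7.26% of all tested genes, with a median log2 fold change of -0.24 beside 0.55 for the replication genes. Ccnb1, cyclin B1, was at 126 and 123 TPM in shScram against 81.1 and 80.3 TPM in shFTO (-0.62 ± 0.12, adjusted p = 0.00712), and Aurkb was higher (0.77). At Diff 11 of the 15 were higher and none lower, against 11.9% and 9.31%, with a median of 1.03 beside 0.26 for the replication genes. In shScram all 15 fell from MCE to differentiation with a median of -2.20, and in shFTO 10 fell with a median of -0.97, whereas the replication genes fell by medians of 0.91 and 0.95. The difference between the lists was not tested.

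**Figure D5:**
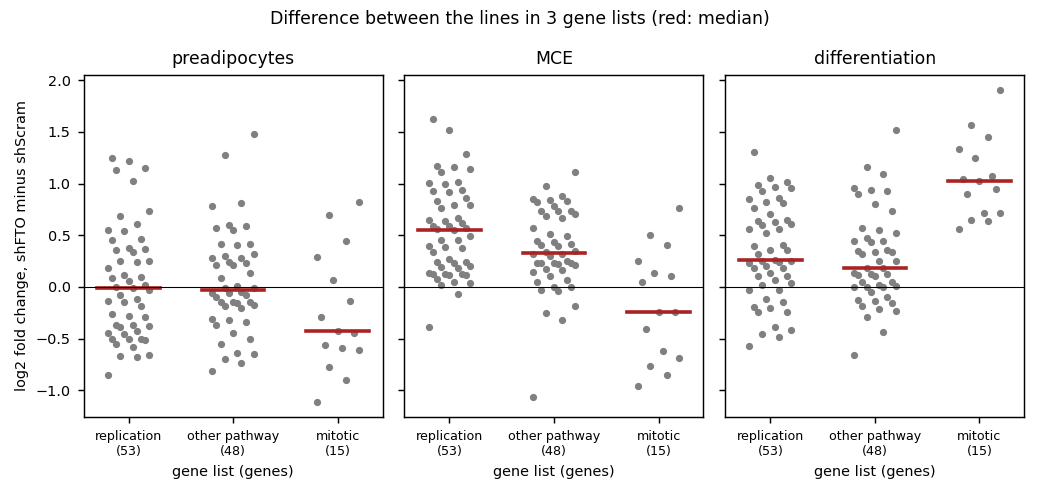
Log2 fold change of shFTO over shScram (TPM + 1) in preadipocytes, at MCE and after differentiation for the 53 replication genes, 48 other genes of the pathway and 15 mitotic genes, with 1 point per gene and the median in red. At MCE the medians are 0.55, 0.33 and -0.24, and after differentiation 0.26, 0.18 and 1.03.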

How the data were processed

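RNA of 12 libraries from 3T3-L1 cells was analysed, 2 for each of 6 groups of line and stage, assigned by title. For the deposited TPM table the authors used Trim Galore 0.6.5 on paired reads, HISAT2 2.1.0 for alignment (build GRCm38) and StringTie 2.1.4 for quantification, with genes of Ensembl release 102. Fragments were size selected on a gel before the library was made. TPM is set to one total per library, so depth is unknown, low genes are the least certain, and a rise of abundant transcripts lowers the share of others. Counts were not used here.

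The values log2(TPM + 1) were fitted with limma 3.58.1 in R 4.3.3, with a mean for each group and a trended estimate of the spread over all 12 libraries, which left 6 residual degrees of freedom. Tests were two-sided with Benjamini-Hochberg adjustment over 15968 genes, and a gene was called at an adjusted p under 0.05 regardless of fold change. Fold changes on this scale understate those of low genes. In each comparison and complex, the called member with the largest log2 fold change is given with its error and p. Tk1, Rpa2 and Cdt1 were also described because of their values, and so were members whose subunits differed.

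The members and lists were chosen with earlier results of these data known. Coordinates and exon overlaps came from GENCODE M21 on GRCm38, and promoter sequences from RefSeq on GRCm38.p6. Exons of 16 members overlap another gene on the opposite strand. Alternatives were another pseudocount, filters, other scalings of the libraries, a fit on the compared libraries alone, no trend, the replicate number as a block, and each library left out. Other steps used Python 3.11.15 with pandas 2.3.3, numpy 2.4.6 and scipy 1.17.1.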

Additional observations from a re-analysis of the deposited data

Results flagged for a closer look

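The 11 differences of steps below were set aside because the effect of a stage differed between the lines by the test of the difference itself. From preadipocytes to MCE, the log2 step in shFTO exceeded that in shScram by 1.25 for Mcm4, 1.16 for Mcm6, 0.81 for Mcm7, 0.90 for Pole, 0.91 for Pcna, 0.93 for Rfc3, 1.20 for Rrm1 and 1.32 for Chaf1b. From MCE to differentiation, the step in shFTO minus that in shScram was -0.63 for Mcm7, -0.88 for Pcna and -1.09 for Rfc3. No group had more than 2 libraries, so no library could be tested as an outlier within its group.

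The step from preadipocytes can differ through either end, and the fold changes between the lines at each end were as follows. For Mcm4, Mcm6, Mcm7, Pole, Rfc3 and Rrm1 the log2 fold change of shFTO over shScram was below 0 in preadipocytes, from -0.66 (Pole) to -0.14 (Mcm6), and above 0 at MCE, from 0.24 (Pole) to 1.019 (Mcm6). For Pcna and Chaf1b it was 0.00 and -0.03 in preadipocytes and 0.91 and 1.29 at MCE.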

How the results depend on the processing

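Of the 78 results for single genes under up to 20 alternatives, 28 kept their direction and their side of the threshold in all, 317 values lost the call and none changed direction. Calls lost under most alternatives (11 to 15) were those of Mcm5, Fen1 and Rpa2 in preadipocytes, Orc1 and Fen1 at MCE, Gmnn and Rfc3 after differentiation, Cdc6, Fen1 and Rpa2 to MCE in shScram, Rpa2 to MCE in shFTO, Orc3 to differentiation in shScram, and the differences of steps of Pole to MCE and of Mcm7 and Pcna to differentiation. The numbers below are members called in either direction. The share of all tested genes called also moved with the setting, as given for preadipocytes and MCE. A count alone therefore does not set the members apart, and a count given without that share is no result about them. For shFTO against shScram in preadipocytes 14 were called with all libraries and settings as reported, 8 with no filter, 0 when fitted on its own 4 libraries (limma, with 2 members at an unadjusted p under 0.05, against 24 in the fit of all libraries) and 0 to 39 with a library left out. At MCE 20 were called, 37 on its own libraries and 10 to 33 with a library left out. After differentiation 16 were called, 31 on its own libraries and 2 to 31 with a library left out. From preadipocytes to MCE in shScram 16 were called, 26 with median-ratio scaling, 0 on its own libraries (limma, 8 at an unadjusted p under 0.05) and 5 to 40 with a library left out. The split there was 11 higher and 5 lower, 24 and 2 with median-ratio scaling, and 20 and 3 with quantile normalization. From MCE to differentiation in shScram 35 were called, and 23 to 44 with a library left out. From preadipocytes to MCE in shFTO 28 were called, 42 with median-ratio scaling, 46 on its own libraries and 19 to 46 with a library left out. From MCE to differentiation in shFTO 41 were called, and 27 to 49 with a library left out. For the difference of the steps to MCE 8 were called, 2 on its own libraries and 3 to 37 with a library left out. For the difference of the steps to differentiation 3 were called, 1 with pseudocount 0.1, 1 with median-ratio scaling, 2 with quantile normalization, 2 without a trend, 18 on its own libraries and 0 to 19 with a library left out.

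Leaving out either shScram preadipocyte library removes that pair from the shared estimate of the spread, and the counts were 33 at MCE and 31 after differentiation in both cases. Where a library left out leaves its group with 1, that library is assumed to vary like the others. Of 15 pairs of groups, 2 had deviations between replicates that correlated over 0.1 (range -0.29 to 0.17). These values cannot show whether the replicate numbers pair the samples, which is unknown. With the replicate number as a block, 13, 17, 13, 15, 33, 27, 40, 7 and 1 were called in the order above. The cause of these changes was not tested. TPM gives no depth, so genes near 1 TPM, such as Ticrr and Cdc6 in shScram at Diff, are the least certain.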

Other observations

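Subunits that work together in fixed proportion did not always keep similar transcript levels. In CAF-1, Chaf1a exceeded Chaf1b in shScram at MCE (34.2 and 37.8 TPM against 15.1 and 16.6 TPM) and was close to it in shFTO (43.2 and 41.7 TPM against 38.8 and 41.5 TPM). In primase, Prim1 exceeded Prim2 in shScram at MCE (31.2 and 26.0 TPM against 22.6 and 19.7 TPM), and Prim2 exceeded Prim1 in shFTO (45.0 and 48.6 TPM against 36.0 and 30.2 TPM). In the kinase that fires origins, Dbf4 exceeded Cdc7 in all 6 group means but went in shScram from 64.5 and 41.8 TPM in preadipocytes to 9.86 and 14.1 TPM at Diff, where Cdc7 was at 11.8 and 11.9 TPM.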
